A study of Mus musculus with 16 samples.

Results

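Axon guidance ligands and receptors were followed in the dorsal raphe nucleus (DRN) of adult male mice 6 h after an injection of dexamethasone (DEX) or saline. Members were chosen by gene symbol alone: the Slit ligands and their Robo receptors, the semaphorins with their plexin and neuropilin receptors, the netrins with Dcc and the Unc5 receptors, and the ephrins with the EphA and EphB receptors. Of the 14504 genes listed in the table, 61 were members, 31 of them ligands and 30 receptors. The mice were C57BL/6 animals, either controls without defeat, which were housed singly before the experiment, or animals that met an aggressive CD1 male daily for 30 days. Defeated mice had been sorted by their behavior during non-aggressive contact into a passive coping strategy (PS, dep1 in the labels) and an active coping strategy (AS, dep2 in the labels). DEX, which binds and activates the glucocorticoid receptor, was given at 2 mg/kg. The 16 libraries, 1 animal each, comprised 3 control saline, 3 control DEX, 2 PS saline, 3 PS DEX, 3 AS saline and 2 AS DEX animals, and libraries are named as in the labels (con, dep1 or dep2, then sal or dex, then the animal number).

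Axon guidance molecules steer growing axons in development. Slits repel axons through Robo receptors, semaphorins signal through plexins with neuropilins as co-receptors for the secreted class, netrins attract through Dcc and repel through Unc5 receptors, and ephrins are membrane-bound ligands of the Eph receptor tyrosine kinases. In the adult brain many of these genes remain active and act on synapses, dendritic spines, myelinating cells and blood vessels. The DRN holds most of the serotonin neurons that project to the forebrain, together with glutamate, GABA and glial cells, and its tissue borders the cerebral aqueduct.

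The libraries held 38207157 to 62447298 reads in the listed genes, and no member fell below 10 reads in any of them. Tph2, the enzyme that defines serotonin neurons, was at 91764 to 182191 normalized counts in every library. Fkbp5, a direct target of the glucocorticoid receptor, was at 1241 to 1536 normalized counts over the saline libraries and at 5578 to 6958 over the DEX libraries, so the groups did not overlap. In bulk tissue, fewer cells of a type and less RNA per cell cannot be told apart. The libraries dep2_sal_40 and con_sal_104 had the most listed genes at 0 (228 and 248, against 56 to 171 in the others), and values without them are also given. Animals within a group are separate mice, and nothing else in the labels divides the libraries into batches.

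All 12 families had members among the genes listed for the adult DRN, and their abundance differed widely. Genes of these families that are absent from the listed genes were not counted. Levels of different genes are compared per kilobase (kb) of merged annotated exon, as normalized counts per kb averaged over the 16 libraries, which understates genes with long unspliced or rare exons. The other semaphorins (all those listed outside the secreted semaphorins) had the largest summed level of the ligand families, 5905 per kb over 13 genes. The plexins had the largest of the receptor families, 3948 per kb over 9 genes. The most abundant ligands were Efnb3, an ephrin-B of neurons, at 1536 per kb and Sema6b, a transmembrane semaphorin that binds A-type plexins, at 1413 per kb. Their ranges over the libraries on the count scale were 3797 to 5910.4 and 4628 to 6632 normalized counts. Among repellents of the Slit family, Slit1 was the most abundant at 822 per kb, above Slit2 (121 per kb) and Slit3 (63.3 per kb). Efna3 led the ephrin-A ligands at 500.1 per kb and Efna1 was the least abundant member on the count scale, with a mean of 85.8 normalized counts. Ntn1, the attractant for commissural axons, led the netrins at 429 per kb. Sema3f, a ligand of Nrp2, led the secreted semaphorins at 175 per kb.

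Among receptors, Ephb6, an Eph receptor whose kinase domain is inactive, was at 816 per kb, and Epha10, also without kinase activity, at 673 per kb. These 2 led the EphB and EphA families. Plxna1 led the plexins at 676 per kb, and 7355 normalized counts for Plxna4 was the highest member mean on the count scale. Unc5d led the Dcc and Unc5 group at 501 per kb, Robo1 the Robo receptors at 273 per kb and Nrp2 the neuropilins at 159 per kb. The median member had a mean of 1679 normalized counts, against 1180.2 over all listed genes, and a merged exon length of 7.0 kb, against 4.04 kb.

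**Figure D1:**
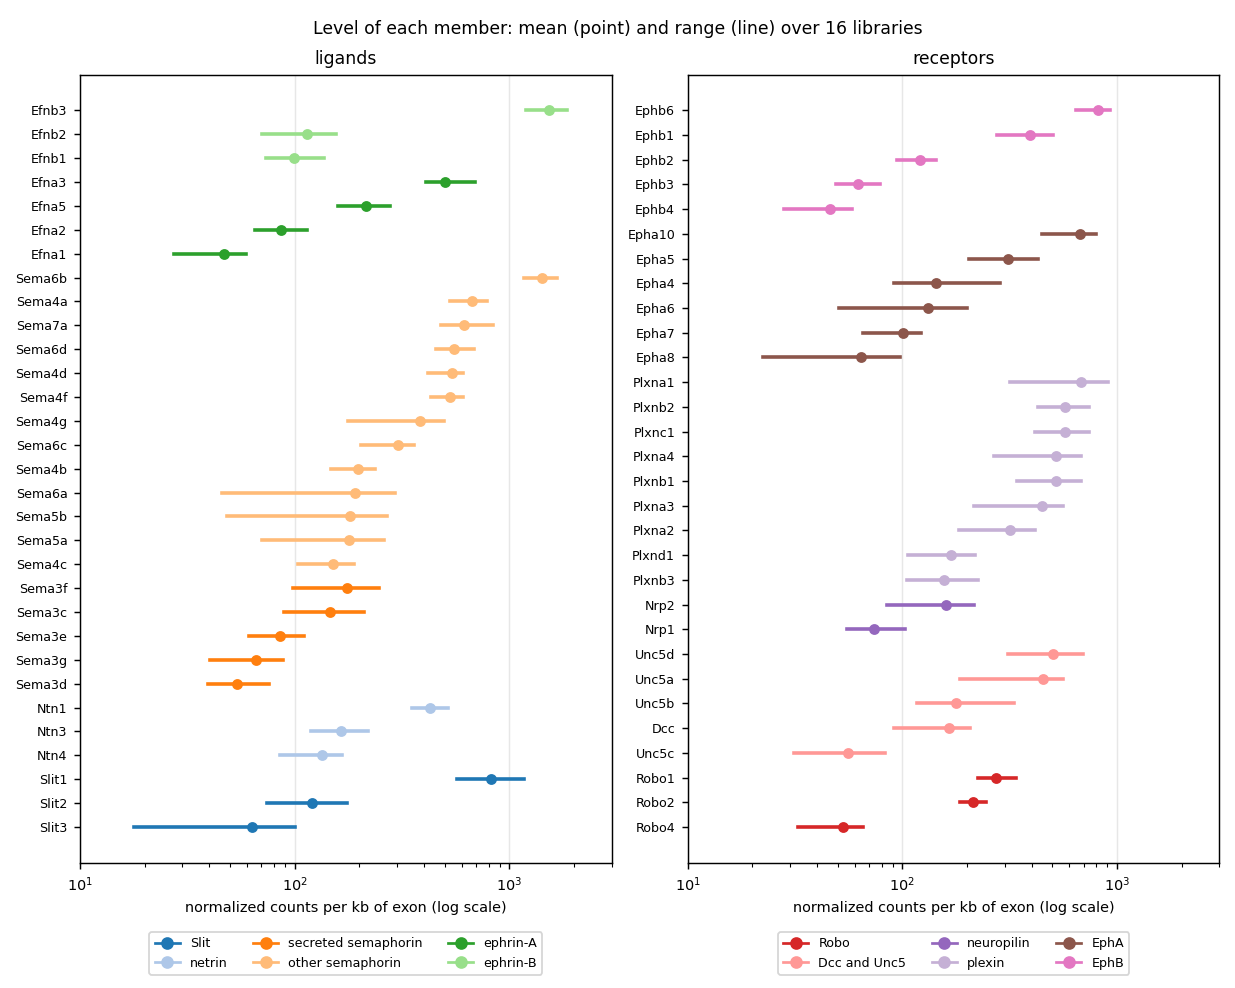
Level of each of the 61 members in normalized counts per kb of merged exon on a log axis, ligands on the left and receptors on the right. Points are means over the 16 libraries and lines run from the lowest to the highest library, with Efnb3 at 1536 and Sema6b at 1413 per kb the highest.

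The question of the DEX comparisons was which guidance genes responded to activation of the glucocorticoid receptor and whether that response depended on stress history. No member passed an adjusted p of 0.1 in limma in any of the 13 comparisons, including DEX averaged over the 3 phenotypes. The same fit called 1.26% of all listed genes with DEX in controls, 0.703% in PS, 0.689% in AS and 4.31% averaged over phenotypes. At an unadjusted p under 0.05 there were 11 members with DEX in controls (18.0%, against 12.1% of all genes), 3 in PS (4.92%, against 4.69%), 8 in AS (13.1%, against 9.36%) and 10 on average (16.4%, against 14%). Tests on the whole reads recovered from the values called few members. edgeR called 0, 0, 0 and 1 member in these comparisons, against 1.24%, 0.696%, 0.703% and 4.29% of all genes, and DESeq2 called 2, 0, 0 and 3 members, against 3.07%, 1.34%, 1.93% and 6.23%. The median member's 95% interval spanned a factor of 1.34 on either side of its fold change among control mice, 1.38 among PS or AS mice and 1.2 when averaged over phenotypes, so smaller differences could not be resolved at this number of animals.

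Slit2 and Sema3c, both secreted guidance ligands, were the members with the smallest p-values for DEX in controls. Slit2 was at 2797, 1896 and 2127 normalized counts in the control saline libraries (con_sal_102, con_sal_104 and con_sal_114) and at 2769.7, 3519.9 and 3955 in the control DEX libraries (con_dex_101, con_dex_116 and con_dex_122). The group means were 2273 ± 468 and 3415 ± 599 (SD, n = 3), and the groups overlapped, since con_sal_102 lay above con_dex_101. The ratio was 1.51-fold with a 95% interval of 1.17 to 1.93 (limma log2 fold change 0.59, SE 0.17, adjusted p = 0.17), and DESeq2 gave an adjusted p of 0.0487. In defeated mice Slit2 was at 3078 and 4439.7 in PS saline, 3321, 2697 and 3270.2 in PS DEX, 3311, 3194 and 3169.5 in AS saline and 2812 and 2895 normalized counts in AS DEX. PS saline and DEX libraries overlapped, and both AS DEX libraries lay below all 3 AS saline libraries, by a log2 fold change of -0.18 (SE 0.19, adjusted p = 0.701). The log2 difference between the DEX effects was -0.85 for PS against controls (SE 0.25, unadjusted p = 0.00435, adjusted p = 0.9996) and -0.77 for AS against controls (unadjusted p = 0.00856, adjusted p = 0.941), and neither passed. After removal of each library's trend on transcript length and GC content the difference between PS and controls was -0.51, and the Slit2 change in controls was 0.25 on the log2 scale (adjusted p = 0.682), and without con_sal_102 it was 0.75 (adjusted p = 0.0540).

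Sema3c, a secreted semaphorin that acts through neuropilins, was at 823, 709.7 and 636 normalized counts in control saline and at 1003, 1314 and 1277 in control DEX. Every control DEX library lay above every control saline library, with means of 723 ± 94.2 and 1198 ± 170.1 (SD, n = 3). The difference did not pass in limma (log2 fold change 0.73, SE 0.22, adjusted p = 0.20), while DESeq2 gave an adjusted p of 0.0657. Sema3c was at 838 and 1402 in PS saline, 1305, 1143 and 968 in PS DEX, 912, 953 and 1509 in AS saline and 836 and 991 normalized counts in AS DEX, where saline and DEX libraries overlapped. The log2 difference between the DEX effects in AS and in controls was -0.99 (SE 0.33, unadjusted p = 0.00964, adjusted p = 0.941). Sema3d, a further secreted semaphorin, also had no overlap in controls, at 383, 376 and 504 against 567, 655 and 511 normalized counts (log2 fold change 0.46, SE 0.17, adjusted p = 0.304, and 0.18 after removal of the length and GC trends). In all, 6 members were higher and 3 lower in every control DEX library than in every control saline library, where 8.51% and 7.43% of all genes were.

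Unc5b, a netrin receptor that mediates repulsion and is known from growing vessels, was the member with the smallest p for DEX averaged over phenotypes. It was at 2074, 879 and 1204 normalized counts in control saline, 1008, 903 and 759 in control DEX, 1182 and 1521 in PS saline, 939, 918 and 735 in PS DEX, 1728, 1295 and 902 in AS saline and 877 and 906 in AS DEX. The 8 DEX libraries lay in a narrow band and the saline libraries were spread from inside that band upwards, with no overlap in PS alone. The ratio of DEX to saline was 0.68-fold with a 95% interval of 0.52 to 0.87, which missed the threshold in limma (log2 fold change -0.57, SE 0.17, adjusted p = 0.113) and passed in edgeR (adjusted p = 0.0783) and DESeq2 (adjusted p = 0.0120). Mature oligodendrocyte markers also moved with DEX. The mean log2 deviation of the 12 markers was -0.14 to 0.53 over the 8 saline libraries and -0.59 to 0.07 over the 8 DEX libraries, and 11 of the 12 markers were lower with DEX on average, 6 of them past the threshold, with a median log2 fold change of -0.40. Other cell markers moved with DEX as well. The microglial score did not overlap between the arms, at 0.03 to 0.57 over the saline and -0.28 to -0.02 over the DEX libraries, with 9 of 10 markers lower and 3 of them past the threshold. The mural cell score was -0.31 to 0.51 and -0.48 to 0.13 (5 of 7 markers lower, 1 past the threshold), and the endothelial score -0.31 to 0.28 and -0.29 to 0.10 (6 of 8 lower, 1 past the threshold), and the part of these 3 scores in the Unc5b difference was not tested. With the oligodendrocyte score as a covariate the Unc5b difference was -0.10 on the log2 scale (adjusted p = 0.969). That score itself moved with DEX, so this fit cannot separate its part from the DEX effect. The Unc5b difference was -0.55 with the ependymal score (adjusted p = 0.0851) and -0.75 with the serotonin neuron score (adjusted p = 0.0098). Without dep2_sal_40 and con_sal_104 it was -0.74 (adjusted p = 0.00673). After removal of the length and GC trends the Unc5b difference was -0.64 (adjusted p = 0.0187).

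**Figure D2:**
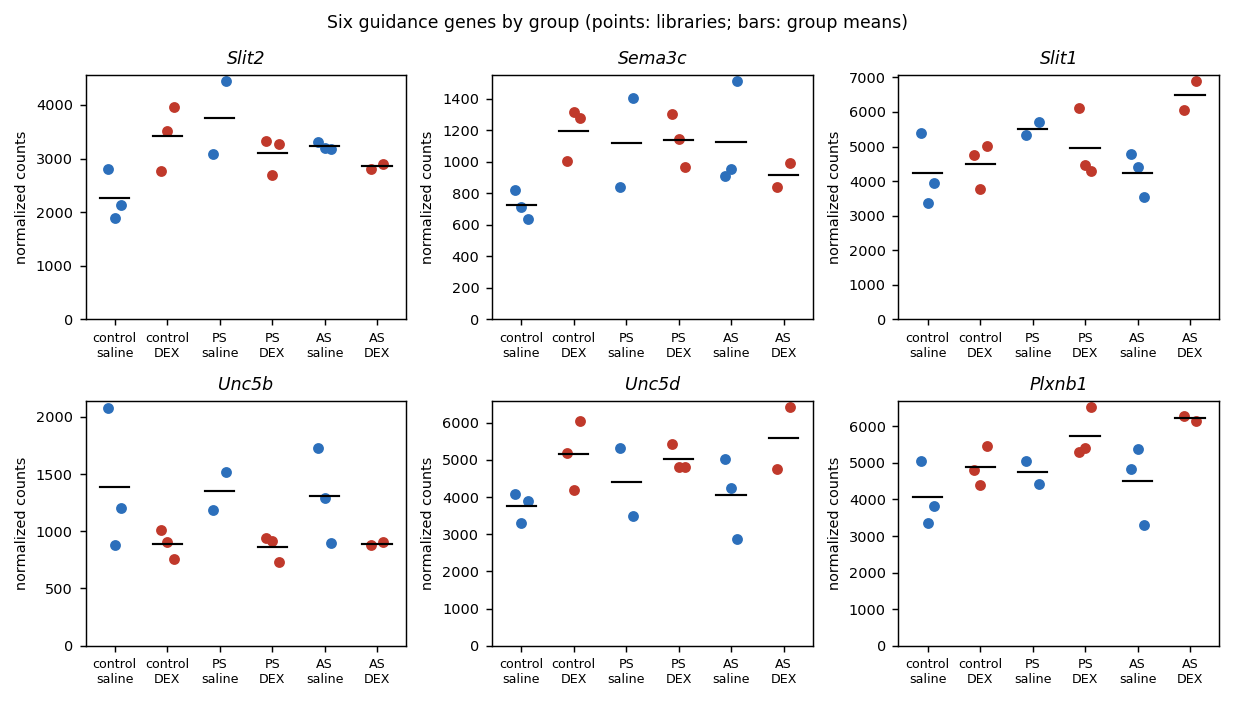
Normalized counts of 6 members in each library, from 0 upwards, with saline libraries in blue, DEX libraries in red and a black bar at the group mean. The control DEX means of Slit2 and Sema3c lie above the control saline means, at 3415 and 1198, and Unc5b lies between 735 and 1008 in all DEX libraries.

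**Figure D3:**
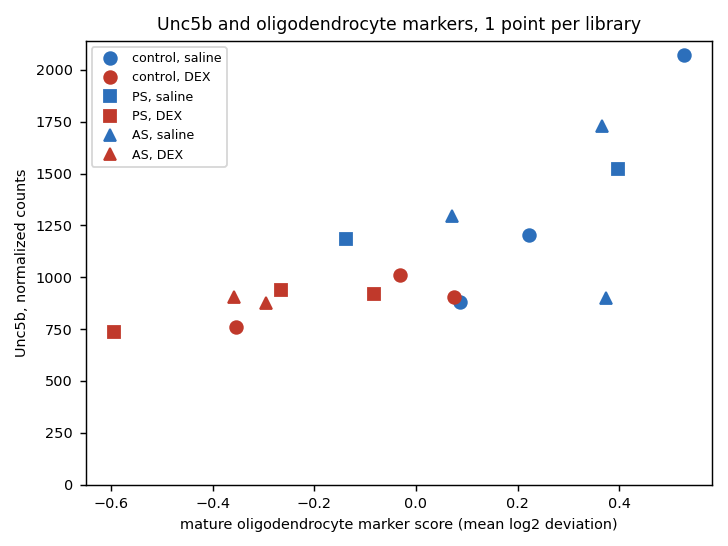
Unc5b in normalized counts (vertical axis, from 0) against the mature oligodendrocyte marker score of the same library (mean log2 deviation of 12 markers), 1 point per library, saline in blue and DEX in red. The libraries with the highest Unc5b, con_sal_102, dep2_sal_8 and dep1_sal_68, have scores of 0.53, 0.37 and 0.40, while dep2_sal_40 has a score of 0.37 with Unc5b at 902, inside the range of the DEX libraries.

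The promoters of Slit2 and Unc5b are shown because these members had the smallest p-values for DEX, which acts through a receptor that binds DNA. They were read from RefSeq on build GRCm38.p6 and cover 300 bases around the annotated start. Capitals mark the GC box GGGCGG on either strand and the TATA box TATAAA. The Slit2 promoter (chr5:47982905-47983204, plus strand) held 3 GC boxes and 1 TATA box at 68% GC, and the Unc5b promoter (chr10:60831532-60831831, minus strand) held 3 GC boxes at 69.7% GC.
Slit2: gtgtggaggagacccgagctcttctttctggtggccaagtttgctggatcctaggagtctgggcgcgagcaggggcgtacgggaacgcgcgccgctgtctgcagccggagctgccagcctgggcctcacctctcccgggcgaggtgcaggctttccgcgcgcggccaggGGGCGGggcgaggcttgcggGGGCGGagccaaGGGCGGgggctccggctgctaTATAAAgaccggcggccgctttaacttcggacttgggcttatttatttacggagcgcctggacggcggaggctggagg
Unc5b: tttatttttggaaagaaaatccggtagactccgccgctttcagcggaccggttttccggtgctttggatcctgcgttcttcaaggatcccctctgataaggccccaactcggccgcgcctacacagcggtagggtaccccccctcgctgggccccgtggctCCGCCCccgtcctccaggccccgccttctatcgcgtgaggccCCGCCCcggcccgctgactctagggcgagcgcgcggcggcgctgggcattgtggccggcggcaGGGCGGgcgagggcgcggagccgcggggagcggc
Of the 61 members, 52 matched the table by symbol, with 68 promoters. Their median GC content was 64.8%, against 52.7% over all 32851 promoters. A GC box was found in 41 of the 52 members (78.8%), where 38.2% of all genes had one, and a TATA box in 2 (3.85%), where 15.7% of all genes had one. The full glucocorticoid response element (AGAACA, any 3 bases, then TGTTCT) was found in 0 members and in 3 of all promoters. Its 6-letter arm AGAACA, searched on both strands and contained in the full element, was found in 5 members (9.62%, against 21.3% of all genes), namely Plxna3, Plxnd1, Sema4d, Sema6b and Sema6d. These letters describe the window alone.

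Unc5d and Plxnb1 had the next smallest p-values for DEX averaged over phenotypes, after Unc5b, and both were higher. Unc5d, a receptor of netrins and Flrt proteins, was at 4085, 3289.8 and 3891 and 5187, 4202 and 6058 normalized counts in control saline and DEX libraries, at 5328 and 3478 and 5416, 4822 and 4798 in PS, and at 5024, 4246 and 2867 and 4763 and 6413 in AS. In controls every DEX library was above every saline library, and in PS and AS they overlapped (log2 fold change 0.38, SE 0.13, adjusted p = 0.177, DESeq2 adjusted p = 0.0958). Plxnb1, the receptor of Sema4d, was at 5041, 3357 and 3829 and 4792, 4407 and 5450.0 normalized counts in control saline and DEX libraries, at 5057 and 4430.0 and 5289, 5396 and 6536 in PS, and at 4829, 5375 and 3298 and 6292 and 6144 in AS. The groups did not overlap in PS and AS and overlapped in controls (log2 fold change 0.35, SE 0.11, adjusted p = 0.139, DESeq2 adjusted p = 0.0730). With the oligodendrocyte score as a covariate the log2 fold changes were 0.17 for Unc5d (adjusted p = 0.955) and 0.22 for Plxnb1 (adjusted p = 0.939). That score moved with DEX, so this covariate fit has the limit given for Unc5b. After removal of the length and GC trends the log2 fold changes were 0.22 (adjusted p = 0.312) and 0.21 (adjusted p = 0.0769). Exons of Plxnb1 share 257 bases with a gene on the opposite strand.

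In AS mice 14 members were higher and 5 lower in both DEX libraries than in all 3 saline libraries, where 15.1% and 14.8% of all genes were. The smallest p-values belonged to Plxnc1, the receptor of Sema7a, to the transmembrane semaphorin Sema4c and to Slit1. Slit1 was at 4779, 4417 and 3539 normalized counts in AS saline and at 6063 and 6906 in AS DEX (log2 fold change 0.62, SE 0.20, adjusted p = 0.339). Plxnc1 was at 4410.0, 4774 and 3472 and 5219.9 and 6202 (log2 fold change 0.44, SE 0.14, adjusted p = 0.316), and Sema4c at 633, 698 and 476 and 868 and 851 normalized counts (log2 fold change 0.53, SE 0.17, adjusted p = 0.335). In all 3 genes dep2_sal_40 was the lowest library of its group, and AS DEX rests on 2 animals. Without dep2_sal_40 the log2 fold changes were 0.49 for Slit1 (limma adjusted p = 0.886), 0.31 for Plxnc1 (0.851) and 0.37 for Sema4c (0.898). After removal of the length and GC trends they were 0.35 for Slit1 and 0.25 for Plxnc1, and Plxnc1 was at 0.25 with the oligodendrocyte score as a covariate. With library weights Slit1 was at 0.54 (adjusted p = 0.0187) and Sema4c at 0.33 (adjusted p = 0.0819), and both passed. Plxnc1 was at 0.28 (adjusted p = 0.119) in that fit. The weights were 5.66 for dep2_sal_14, 0.88 for dep2_sal_8 and 0.18 for dep2_sal_40, so the AS saline mean rested mainly on dep2_sal_14. Sema4b, of the same class as Sema4c, was at 1129, 1063 and 835 and 1317 and 1340.4 (log2 fold change 0.41, SE 0.14, adjusted p = 0.341). With the same library weights Sema4b was at 0.32 and passed (adjusted p = 0.0379).

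In PS mice the members with the smallest p-values were lower with DEX, and all 3 were EphB receptors or an ephrin-B. Ephb6 was at 3511 and 3262 normalized counts in PS saline and at 3017, 2901 and 2427 in PS DEX (log2 fold change -0.29, SE 0.11, adjusted p = 0.692). Ephb2, a receptor kinase of excitatory synapses, was at 1707 and 1805 and 1592, 1232 and 1193 (log2 fold change -0.40, SE 0.17, adjusted p = 0.927). Efnb3 was at 5377 and 5351 and 4858, 4194 and 3797 normalized counts (log2 fold change -0.33, SE 0.15, adjusted p = 0.99993), and in controls at 5910.4, 5678 and 4793 and 4591, 4151 and 4156, also without overlap (log2 fold change -0.34, SE 0.14, adjusted p = 0.355). In AS mice Efnb3 was at 5795, 5406 and 3877 in saline and 5150.2 and 5151 in DEX, inside the saline range. Without dep2_sal_40, Efnb3 averaged over phenotypes was lower with DEX by a log2 fold change of -0.26 (adjusted p = 0.0430), against -0.21 (adjusted p = 0.301) with it. In PS, 15 members were lower and 4 higher in all 3 DEX libraries than in both saline libraries, where 10.1% and 11.2% of all genes were.

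By family, the ephrin-A ligands, which bind EphA receptors, had lower means with DEX. Of the 4 ephrin-A ligands, 4 had a lower mean with DEX in controls and in PS, and 3 in AS, with medians of -0.23, -0.13 and -0.09. Efna3, for example, was at 1325, 1690.2 and 1241 normalized counts in control saline and 1262, 1008 and 1079 in control DEX (log2 fold change -0.34, SE 0.13, adjusted p = 0.318). Its exons share 344 bases with an antisense gene, and the counting setting for strand was not given in the sources used here. The 9 plexins had medians of 0.08 among controls, -0.15 in PS and 0.44 in AS, and the 6 EphA receptors of 0.22, -0.16 and 0.16. After removal of the length and GC trends the plexin medians were -0.10, -0.06 and 0.13, with the opposite sign in controls, and the EphA medians 0.13, -0.20 and 0.07. Over all members 37 of 61 were higher with DEX in controls (median 0.07), 15 in PS (-0.15) and 44 in AS (0.16), where the medians over all genes were 0.004, -0.004 and -0.006. After the same removal the medians over all members came to 8.69e-05 with DEX among controls, -0.09 among PS mice and 0.02 among AS mice. Leaving out 1 library gave 0.02 (without con_sal_104) to 0.17 (without con_sal_102) in controls, and the median in AS was 0.03 without dep2_sal_40.

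**Figure D4:**
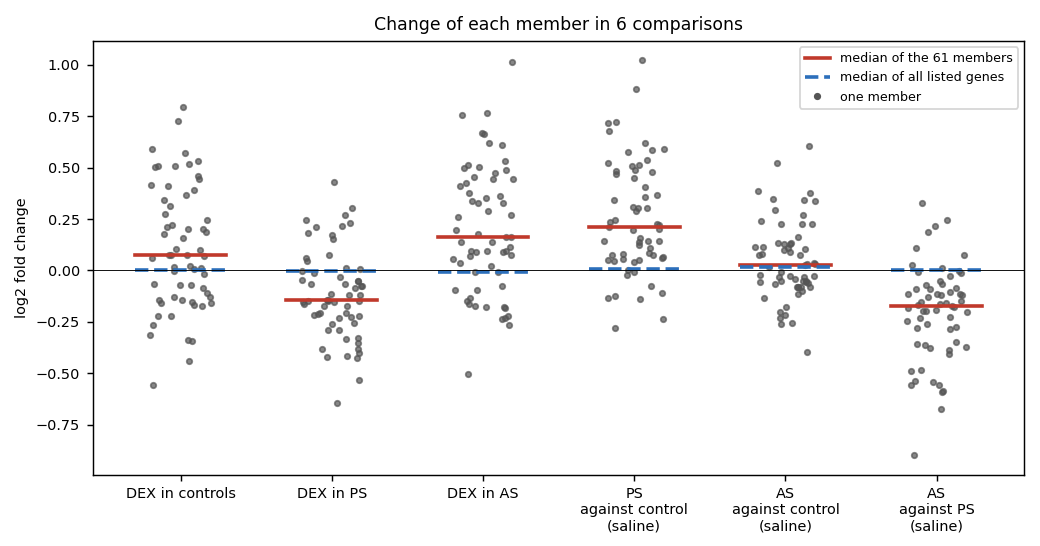
Log2 fold change of each of the 61 members (grey points, spread sideways at random) in 6 comparisons, with the median of the members in red and the median of all 14504 genes as a dashed blue line. The members' median was -0.15 with DEX in PS, 0.16 with DEX in AS and 0.21 for PS against control under saline.

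The stress comparisons asked how guidance genes differed after 30 days of defeat without DEX. limma called 0 of 61 members and 0% of all genes in PS against control, in AS against control and in AS against PS under saline. At an unadjusted p under 0.05 there were 8 members in PS against control, all higher (13.1%, against 7.67% of all genes), 3 in AS against control, all higher (4.92%, against 2.39%), and 0 in AS against PS (against 3.41%), and edgeR and DESeq2 called 0 members (edgeR called 0% of all genes in each, and DESeq2 0.0276%, 0.0774% and 0.0069%). The PS comparison rests on 2 PS saline animals. The PS and AS comparisons with controls and the DEX comparison in controls all use the same 3 control saline libraries. Their values are therefore not independent, and they are set side by side and not compared. Of these libraries, con_sal_104 and con_sal_114 were low for the members as a whole (median log2 deviation -0.27 and -0.24).

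Slit2 had the smallest p of the members in both comparisons with controls, which share the control saline libraries. In PS saline it was at 3078 and 4439.7 and in AS saline at 3311, 3194 and 3169.5 normalized counts, and all 5 of these libraries lay above the 3 control saline libraries (2797, 1896 and 2127). The ratio was 1.65-fold with a 95% interval of 1.25 to 2.18 for PS (log2 fold change 0.72, SE 0.19, adjusted p = 0.571) and 1.44-fold with a 95% interval of 1.12 to 1.84 for AS (log2 fold change 0.52, SE 0.17, adjusted p = 0.998). Sema3c was likewise above the control range in all 5 libraries (log2 fold change 0.59, SE 0.25, adjusted p = 0.571 for PS; log2 fold change 0.61, SE 0.22, adjusted p = 0.998 for AS). Sema3e, a ligand of Plxnd1, was at 754, 569 and 709 normalized counts in control saline and 865, 872 and 902 in AS saline (log2 fold change 0.39, SE 0.14, adjusted p = 0.998). Sema6d, a ligand of Plxna1, was at 6299, 4962 and 4815 in control saline and 6473 and 7193 in PS saline (log2 fold change 0.36, SE 0.14, adjusted p = 0.571). Dcc, the attractive netrin receptor, was at 2108, 1199 and 1739.9 in control saline and 2343 and 2704 normalized counts in PS saline (log2 fold change 0.62, SE 0.24, adjusted p = 0.571). None of these differences passed. After removal of the length and GC trends the PS values were 0.34 for Slit2, 0.22 for Dcc and 0.16 for Sema6d, and the AS value of Sema3e was 0.25. Slit2 in PS was at 0.46 without dep1_sal_68, Dcc at 0.39 without con_sal_104, and Sema3c in AS at 0.37 without dep2_sal_40.

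Many receptors had higher means in PS saline than in control saline. Of the 61 members, 52 were higher (median log2 fold change 0.21), including 9 of 9 plexins (median 0.49), 6 of 6 EphA receptors (0.49) and 5 of 5 Dcc and Unc5 receptors (0.30), where 51.0% of all genes were higher. Epha6 was at 651, 269 and 545 normalized counts in control saline and 672 and 1054 in PS saline (log2 fold change 0.88, SE 0.36, adjusted p = 0.571). Plxnd1, the receptor of Sema3e, was at 1396, 1372 and 779 and 1586 and 1534 (log2 fold change 0.45, SE 0.22, adjusted p = 0.571). Sema4g was at 3710.1, 2225 and 1932 and 4319.5 and 3956 normalized counts (log2 fold change 0.72, SE 0.35, adjusted p = 0.571). In total 15 members were higher and 1 lower in both PS saline libraries than in all 3 control saline libraries, where 14.3% and 14.2% of all genes were. After removal of each library's trend on transcript length and GC content the members' median was 0.06, and the medians were 0.06 for the plexins, 0.27 for the EphA receptors and 0.21 for the Dcc and Unc5 receptors. Leaving out 1 library gave members' medians of 0.16 to 0.33, the highest without con_sal_102.

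Between the defeated groups under saline, 8 members were higher in AS than in PS and 53 lower, with a median of -0.17, which was -0.04 after the same removal and -0.06 without dep2_sal_40. These members come from the same libraries and are not independent. The share of all genes lower in AS than in PS is not given here, so these counts do not set the members apart. Epha10 was at 5532 and 5046 normalized counts in PS saline and 4679.8, 4619 and 3235 in AS saline (log2 fold change -0.36, SE 0.17, adjusted p = 0.728), and Plxna1 at 7569.9 and 6983 and 6921, 5683 and 2858 (log2 fold change -0.59, SE 0.31, adjusted p = 0.728). In both genes dep2_sal_40 was the lowest of all 16 libraries, and without it the log2 fold changes were -0.18 and -0.21. In all, 2 members were higher and 11 lower in every AS saline library than in both PS saline libraries (11% and 12.7% of all genes), and 4 were higher and 1 lower in every AS saline than in every control saline library (2.38% and 2.11%). Sema3e was higher in all 3 AS saline libraries than in both PS saline libraries (758 and 648, log2 fold change 0.33, SE 0.16, adjusted p = 0.728, and 0.21 without dep1_sal_68). Averaged over saline and DEX, 0 members were called by limma, edgeR or DESeq2 in PS against control, AS against control or AS against PS (limma called 0%, 0.0138% and 0% of all genes, edgeR 0%, 0.0483% and 0%, and DESeq2 0.0138%, 0.255% and 0%), with 3 members at an unadjusted p under 0.05 in PS against control (Slit2, Sema4g and Plxnd1), against 6.48% of all genes, and 0 in AS against control (2.1%) and in AS against PS (1.91%).

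The difference of the DEX effects in AS and PS was positive in 55 of 61 members, with a median of 0.31 on the log2 scale, which was 0.08 after removal of the length and GC trends and 0.17 without dep2_sal_40. All 9 plexins and all 13 of the other semaphorins were positive. The members were measured in the same libraries, so these counts are not independent agreement. The share of all genes with a positive difference is not given here, so these counts do not set the members apart. Slit1 had the smallest p, with DEX effects of -0.17 in PS and 0.62 in AS and a difference of 0.79 (SE 0.29, unadjusted p = 0.0158, adjusted p = 0.869), which was 0.44 after that removal. No member passed in any of the 3 differences between DEX effects, and neither did any gene of the whole table in limma or edgeR (0%), while DESeq2 called 0%, 0% and 0.0069% of all genes and 0 members. At an unadjusted p under 0.05 there were 2 members for PS against controls, 4 for AS against controls and 2 for AS against PS, against 2.1%, 4.02% and 2.9% of all genes.

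Libraries of one group differed in the guidance genes as a whole. The median deviation of the 61 members from their means over all libraries was -0.28 on the log2 scale in dep2_sal_40, -0.27 in con_sal_104 and -0.24 in con_sal_114, while it lay between -0.16 and 0.17 in the other 13. Ligands and receptors had the same sign in these 3 libraries. dep2_sal_40 was the lowest of all libraries for 22 members, con_sal_104 for 12 and con_sal_114 for 11, and dep1_sal_68 and dep1_sal_62 were the highest for 10 and 9. The median over all genes was -0.001 to 0.010 in these and all other libraries. The microglial (0.57), endothelial (0.28) and mural cell (0.51) marker scores were highest in dep2_sal_40, as was the meningeal fibroblast score (0.76), which rests on 1 listed gene. The endothelial and mural cell scores were -0.31 and -0.01 in con_sal_104 and -0.12 and -0.31 in con_sal_114. The serotonin neuron score was highest in con_sal_104 (0.32) and was -0.11 in con_sal_114. The part of these scores in the members' levels was not tested. Without dep2_sal_40 the median for AS against control under saline was 0.20, against 0.03 with it, and it was -0.05 without con_sal_104 and -0.03 without con_sal_114. In 33 of the 61 members no comparison reached an unadjusted p under 0.05, among them all 3 netrins, both neuropilins, all 3 Robo receptors and 9 of the 13 other semaphorins. The share of all genes with no such comparison was not counted, so this count does not set these families apart. The spread within groups also differed between genes: the residual SD was lowest in Ephb6 (0.11) and Robo2 (0.11) and highest in Sema5b (0.86), Sema6a (0.80), Slit3 (0.63) and Epha8 (0.63) on the log2 scale, with a median of 0.26 over members and 0.21 over all genes. The 3 most variable members, Sema5b, Sema6a and Slit3, had their lowest levels in dep2_sal_40 or con_sal_114. Sema6a, a transmembrane semaphorin that signals through A-type plexins, was at 2176, 1574 and 402 in control saline, 1815, 889 and 1835 in control DEX, 1989 and 2565 in PS saline, 2046, 1550.5 and 1492 in PS DEX, 2113, 2158 and 621 in AS saline and 1939.7 and 1700.4 normalized counts in AS DEX. The libraries con_sal_114, con_dex_116 and dep2_sal_40 were its lowest libraries. Robo2, a neuronal Slit receptor, was at 3166 to 4175 normalized counts over all libraries, whereas Sema5b was at 343 to 1906.

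**Figure D5:**
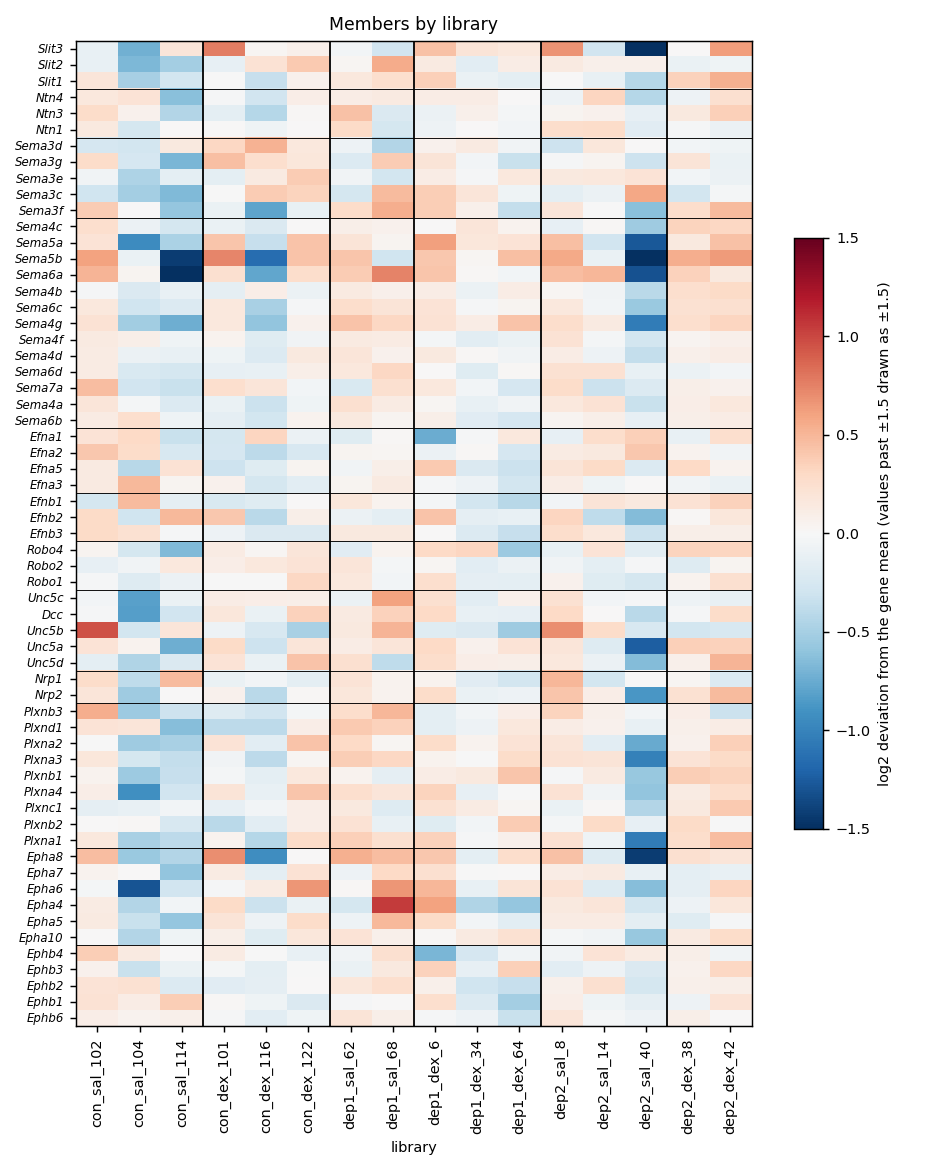
Log2 deviation of each member from its mean over the 16 libraries (red higher, blue lower), with members in rows ordered by family and libraries in columns ordered by group. The columns of dep2_sal_40, con_sal_104 and con_sal_114 are blue in most rows, with median deviations of -0.28, -0.27 and -0.24.

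Genes that act below or beside the guidance receptors were followed as 4 lists. Averaged over phenotypes, DEX raised 1 of 13 Slit and Robo effectors, 1 of 21 semaphorin and plexin effectors and 2 of 17 ephrin and Eph effectors, lowered 1 of the latter and changed 0 of 13 netrin and RGM partners in limma, where 4.31% of all genes were called. Srgap1, which binds Robo receptors, rose (log2 fold change 0.57, SE 0.17, adjusted p = 0.0994). Farp2, an exchange factor downstream of plexins, rose (log2 fold change 0.40, SE 0.10, adjusted p = 0.0411), as did Sipa1l1 (log2 fold change 0.50, SE 0.13, adjusted p = 0.055) and Kalrn, an exchange factor of dendritic spines (log2 fold change 0.56, SE 0.16, adjusted p = 0.0933). Ngef, the exchange factor ephexin that is bound by EphA receptors, fell (log2 fold change -0.32, SE 0.09, adjusted p = 0.0804). No gene of the 4 lists passed within a single phenotype or in a stress comparison. The same fit called 10 of 10 glucocorticoid target genes higher with DEX averaged over phenotypes.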

How the data were processed

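RNA from cryostat punches of the DRN was sequenced as strand-specific poly(A) libraries, 1 animal each. For the extraction reagent and the sequencer the labels and the study's methods name different products. Per the labels and methods, the authors used fastp 0.20.1, HISAT2 2.2.1 on GRCm38 (mm10), featureCounts (Subread 2.0) with a GENCODE annotation and DESeq2 1.36.0. The table the authors deposited holds normalized counts, a signal made from each gene's count and a size factor for the library. Whether strand was used in counting is not given in the sources used here, and 15 members share exon bases with another gene. According to the methods, some DEX-treated PS and AS samples were removed for low Tph2, and further libraries of the study were not analysed here. The deposited tables of the authors' own comparisons (log2 fold changes, p-values and adjusted p-values by the authors) were not used. Columns of per-sample values with no sample here numbered 0.

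In every library 100% of values were whole reads, within 0.1 of a whole number, once multiplied by the size factor. The main test was limma 3.58.1 in R 4.3.3 on log2(normalized count + 1), with a mean for each of 6 groups over 16 libraries, a mean-variance trend and 13 contrasts. P-values were two-sided and adjusted by Benjamini-Hochberg over all 14504 genes, with the study's threshold of 0.1. Printed log2 fold changes keep this pseudocount of 1, which understates changes of low genes, and intervals are 95% intervals of that fit. edgeR 4.0.16 (quasi-likelihood) and DESeq2 1.42.0 on the recovered reads, other pseudocounts (0.1 and 10), a minimum mean of 100, TMM and quantile scaling, library weights, removal of length and GC trends, 3 marker scores as covariates, only the groups compared, and leaving out each of the 16 libraries were alternatives. The limma, edgeR and DESeq2 tests were run on simulated counts with known changes, and the other steps were not tested in this way. Coordinates and exon lengths came from GENCODE vM21. A further gene list is not reported here. Members and lists were chosen with earlier results of these data known. Genes named with values were drawn from the 3 members with the smallest p in each comparison and those called by edgeR or DESeq2. The most abundant member of each family per kb and Slit2 were added. Not every one of these members is given with its value in the comparison that named it. Sema6a, Sema5b, Slit3, Plxna4, Efna1 and others named with values outside this rule were chosen after their values were seen.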

Additional observations from a re-analysis of the deposited data

Results flagged for a closer look

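In 3 members every DEX library moved one way in one phenotype and the opposite way in another, with no overlap with the saline libraries in either, while the difference of the effects, tested as an interaction in limma, did not pass. Unc5c, a netrin receptor, was higher with DEX in controls by a log2 fold change of 0.42 and stood at -0.15 in AS mice (interaction unadjusted p = 0.0822, adjusted p = 0.941). Its libraries were at 1013, 597 and 976 normalized counts in control saline, 1132, 1120.1 and 1110.0 in control DEX, 1227, 1019 and 1035 in AS saline and 994 and 971 in AS DEX. Efnb1, an ephrin-B ligand, was at -0.35 in PS and 0.18 in AS (interaction unadjusted p = 0.0921, adjusted p = 0.869), from 381 and 351 normalized counts in PS saline to 332, 279 and 254 in PS DEX, and from 329.9, 387 and 376 in AS saline to 394 and 429.8 in AS DEX. Sema3e, the ligand of Plxnd1, was at 0.24 in PS and -0.23 in AS (interaction unadjusted p = 0.0536, adjusted p = 0.869), from 758 and 648 to 844, 772 and 878 in PS and from 865, 872 and 902 to 761 and 737 normalized counts in AS. PS saline and AS DEX hold 2 animals each, and 10.1% to 15.1% of all genes are without overlap in one direction within PS or within AS. Within controls 8.51% of all genes are higher and 7.43% lower without overlap. The share of all genes with such opposite moves in 2 phenotypes was not counted.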

How the results depend on the processing

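The count of members called was 0 in all 13 comparisons in limma, and it stayed 0 in the stress comparisons and in the differences between DEX effects under every alternative run. For DEX in controls DESeq2 called 2 members, and leaving out 1 library gave 0 to 1 (Slit2 without con_sal_102, Sema3c without dep2_sal_40). For DEX in PS library weights gave 3 members (Ephb2, Efnb3 and Sema6d, all lower). For DEX in AS library weights gave 6 (Slit1, Sema4b, Sema4c and Unc5a higher, Unc5b and Sema6d lower). Removal of length and GC trends gave 1 in AS, Sema6d (log2 fold change -0.34, adjusted p = 0.0900). For DEX averaged over phenotypes quantile scaling, edgeR, the ependymal score and the serotonin neuron score as covariates gave 1 each, DESeq2 gave 3, removal of length and GC trends 4, library weights 6, and leaving out 1 library 0 to 2: Plxnb1 passed without con_sal_102 or dep2_sal_14, Unc5d without dep1_sal_62 or dep2_sal_8, Unc5b without con_sal_104, and Unc5b and Efnb3 without dep2_sal_40. Without both dep2_sal_40 and con_sal_104, an alternative chosen after seeing the data, it was 2 (Unc5b and Efnb3). The 4 members after removal of length and GC trends were Unc5b, Sema6d, Plxnb1 and Ephb2. Their log2 fold changes were -0.64 (adjusted p = 0.0187), -0.24 (adjusted p = 0.00559), 0.21 (adjusted p = 0.0769) and -0.35 (adjusted p = 0.0888). The adjusted p of Unc5b ranged from 0.00506 with library weights to 0.969 with the mature oligodendrocyte score as a covariate. As limma had called 0 members, there was no call that an alternative could reverse. No log2 fold change changed sign under an alternative in the 39 pairs of member and comparison that were followed. Those pairs were mostly picked for a small p, so stable signs were likely. Other comparisons of the same members were not checked for sign. The cause of the differences between alternatives was not tested. Of the single members' values under the alternatives, 1140 kept their side of the threshold and 27 passed it. No paired analysis was possible because the animal numbers in the labels differ between groups. Every group holds 2 or 3 animals, which limits the precision.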
